A study of Drosophila melanogaster with 24 samples.

Results

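The microRNAs described here are miR-318, miR-994 and miR-989, which are known from the Drosophila ovary. They were followed as 4 mature products, dme-miR-318-3p, dme-miR-994-5p, dme-miR-994-3p and dme-miR-989-3p (below without the species prefix dme), chosen by name as the rows of the deposited table that carry those names. They make up 4 of the 466 mature microRNA names in the table, of which 329 had at least 1 count. Small RNA was sequenced from Drosophila melanogaster body tissue and from hemolymph, the circulating fluid of the fly. All libraries are labelled male. There were 4 libraries of body at 2 days of age (young body), 8 of body at 25 days (old body), 4 of hemolymph at 2 days (young hemolymph) and 8 of hemolymph at 25 days (old hemolymph). In each old group, 4 libraries carry the description code O and 4 the code R, and the labels do not say what the codes mean. Unless stated, the 8 are treated as 1 group below. The labels give no strain, allele or treatment, and they do not say whether libraries came from separate flies or pools. The p-values below therefore measure the spread between libraries, which may be partly technical. Body and hemolymph RNA were extracted with different Qiagen kits, so kit and compartment cannot be told apart.

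A microRNA is cut from a hairpin precursor, and one arm of the hairpin (5p or 3p) is loaded into an Argonaute protein, where its seed pairs with target messenger RNAs and lowers their output. In the Drosophila ovary, miR-318 acts in the follicle cells that surround the egg chamber, where it has been linked to amplification of the eggshell genes. miR-989 acts in the same epithelium and is needed for the migration of the border cells. miR-994 is encoded beside miR-318, and its own role is less well known.

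Both mir-994 and mir-318 lie on chromosome arm 3R in the dm6 coordinates of the Ensembl annotation. The mir-994 hairpin (FBgn0262223) spans 10408137 to 10408227 on the plus strand. The mir-318 hairpin (FBgn0262420) spans 10408302 to 10408369 on the same strand, 74 bases further on. The mir-989 hairpin (FBgn0262215) is on another arm, 2R, at 14145351 to 14145524 on the minus strand. No annotated gene overlaps any of the 3 hairpins. For mir-318 and mir-989 the other arm was scarce: that of mir-318 had 7 counts and that of mir-989 had 47 counts over all 24 libraries.

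Total microRNA counts were 136692 to 242935 per body library and 52792 to 275974 per hemolymph library. Levels below are CPM, the count of a microRNA scaled to the total of all microRNA counts of the library. A single count was thus worth several CPM, and a count of 0 allows up to 12.3 to 21.9 CPM in a body library and 10.9 to 56.8 CPM in a hemolymph library. Intervals and such limits cover counting error only. A male fly has no ovary, and the presence of these microRNAs in libraries labelled male was not explained by any label. The sex of the flies and the tissue these microRNAs came from were not tested. A list of 38 testis microRNA names summed to 0.0231 ± 0.00273% of all counts over the 8 old body libraries (mean ± SD), against 0.0135 ± 0.00444% over the 4 young ones. Of these names, 15 were at 0 in every old body library and 20 in every young body library. How many of all microRNA names were at 0 in either body group was not counted. The 4 ovary products summed to 2.67 ± 0.554% in old body (SD, n = 8), and to 0.256%, 1.503%, 8.04% and 6.93% in young body libraries 1 to 4. Fewer cells of a type and less RNA per cell cannot be told apart in such bulk libraries.

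miR-318-3p was among the abundant microRNAs of old body and ranged widely between the young body libraries. In old body its lowest level was 14315 CPM, its median 20522 CPM and its highest 27895 CPM (mean 20650 ± 4752, SD, n = 8). In young body it was 64.0 CPM in library 1, where it had 12 counts (exact 95% interval 33.1 to 112 CPM), and 6660 CPM in library 2. It was 68137 CPM in library 3 and 54850 CPM in library 4. All 8 old body libraries thus lay between young libraries 1 and 2, which were below them, and young libraries 3 and 4, which were above them. The highest young body library held 1064 times the CPM of the lowest, whereas in old body this ratio was 1.95.

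**Figure D1:**
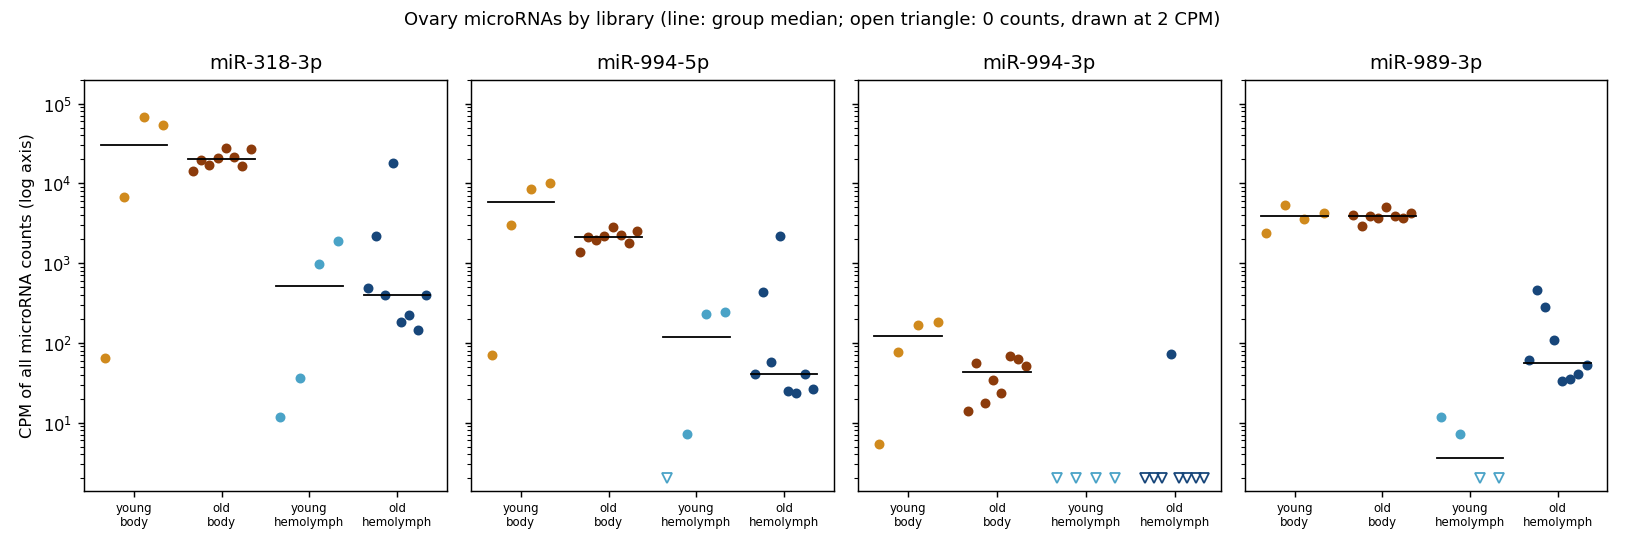
CPM of each of the 4 mature products in every library, on a log axis, by group. Each filled point is 1 library, the line is the group median, and an open triangle is a library with 0 counts, drawn at 2 CPM. The young body libraries spread from 64.0 to 68137 CPM for miR-318-3p, and old hemolymph library 4 is the highest of its group for miR-318-3p, miR-994-5p and miR-994-3p but not for miR-989-3p.

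The products of mir-994 were likewise lowest in young body library 1 and higher in libraries 3 and 4. miR-994-5p was 69.4 CPM (13 counts, exact 95% interval 36.9 to 119 CPM), 2975, 8597 and 10060 CPM in young body libraries 1 to 4. In old body it lay between 1388 and 2874 CPM, with a median of 2150 CPM (mean 2138 ± 448, SD, n = 8). Young libraries 2 to 4 were above every old body library, and young library 1 was below all of them. miR-994-3p, the scarcer arm, was 5.34, 77.7, 167 and 181 CPM in young body libraries 1 to 4, from 1, 14, 33 and 44 counts. In old body it had 2 to 11 counts per library, which gave a lowest level of 14.1 CPM, a median of 42.7 CPM and a highest of 69.1 CPM. By CPM, young library 1 was again below every old body library and the other 3 were above them, but counting error allows other orders. The exact 95% interval of young library 1 was 0.135 to 29.7 CPM, against 1.71 to 50.9 CPM in old body library 1, the lowest. That of young library 2 was 42.5 to 130 CPM, against 34.5 to 124 CPM in old body library 6, the highest.

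miR-989-3p did not share this spread. In young body it was 2418, 5322, 3542 and 4236 CPM in libraries 1 to 4 (mean 3879 ± 1219, SD, n = 4). In old body it lay between 2921 and 5018 CPM, with a median of 3861 CPM (mean 3919 ± 592, SD, n = 8). The young libraries enclosed the old ones: library 1 was below and library 2 above all 8. Young library 1 therefore held 61.7% of the old body mean of miR-989-3p, but 0.310% of that of miR-318-3p and 3.25% of that of miR-994-5p. Young library 3 held 90.4% for miR-989-3p, against 330.0% and 402% for the other pair.

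**Figure D2:**
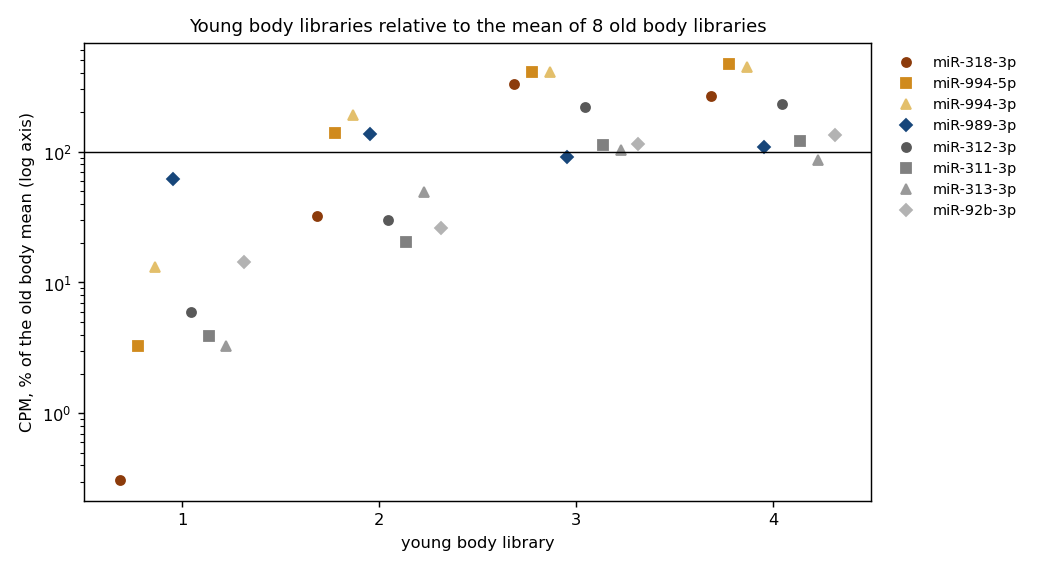
Level in each of the 4 young body libraries as a percentage of the mean over the 8 old body libraries, on a log axis with a line at the old body mean. Colours show the 4 products and greys the 4 microRNAs of other loci nearest to miR-318-3p. miR-318-3p runs from 0.310% in library 1 to 330.0% in library 3, whereas miR-989-3p stays between 61.7% and 136%.

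Whether the products follow each other was tested over the 8 old body libraries, the only body group with at least 6. miR-318-3p and miR-994-5p, products of the neighbouring hairpins, ranked the 8 libraries identically. Pearson's r of log2(CPM + 1) was 0.96 (exact permutation p = 2.48e-05, adjusted over 6 pairs 0.000149) and Spearman's rho was 1.0 (exact permutation p = 4.96e-05, adjusted 0.000298). The rho p is the smallest that 8 libraries allow. Without the 2 libraries farthest from the median of miR-318-3p, r was 0.98. The pair shares its libraries and their depth, as all pairs here do.

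The other 5 pairs did not pass the test in old body. For miR-318-3p with miR-989-3p, r was 0.44 (exact permutation p = 0.265, adjusted 0.428) and rho 0.52 (exact permutation p = 0.197, adjusted 0.393). The remaining r values were 0.32 for miR-318-3p with miR-994-3p, 0.36 for the arms of mir-994, 0.35 for miR-994-5p with miR-989-3p and -0.42 for miR-994-3p with miR-989-3p, with adjusted exact permutation p of 0.428 each. The level of miR-994-3p rested on 2 to 11 counts per old body library. A p that misses the threshold does not show that 2 products vary independently.

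Over all 12 body libraries r was 0.943 for miR-318-3p with miR-994-5p, given as a description because the young libraries lie far apart. Without young libraries 1 and 3, the farthest from the median, it was 0.599. For miR-318-3p with miR-989-3p the corresponding values were 0.569 and -0.185, so both values rest in part on those libraries.

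**Figure D3:**
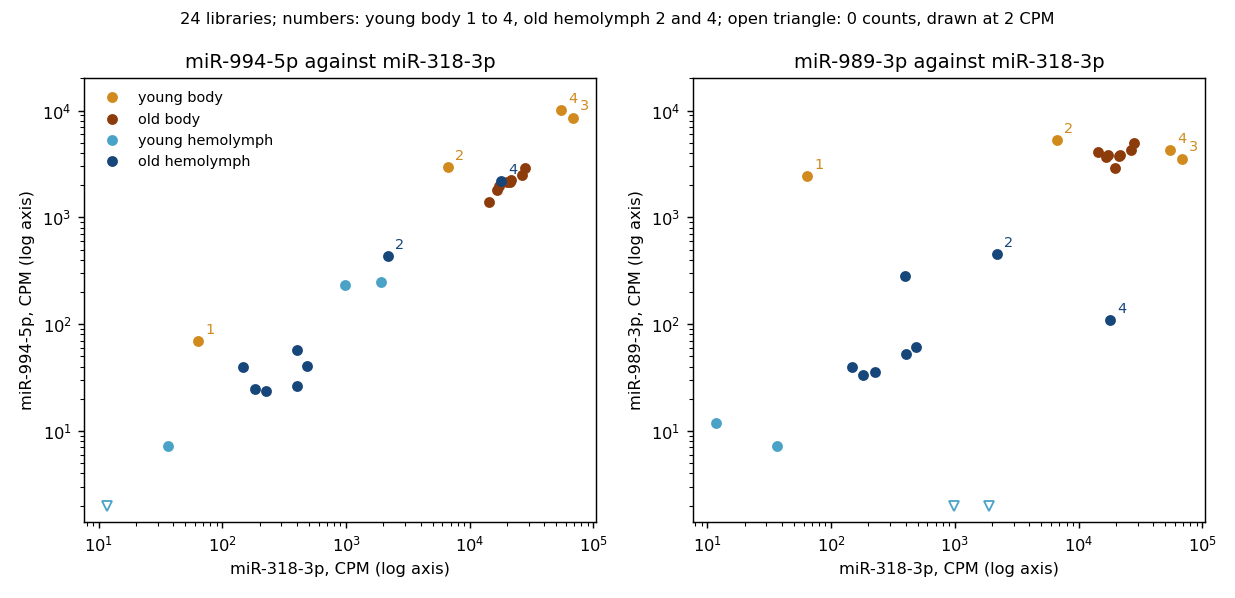
miR-994-5p (left) and miR-989-3p (right) against miR-318-3p in all 24 libraries, CPM on log axes, coloured by group. Open triangles are libraries with 0 counts of the product on the y axis, drawn at 2 CPM, and numbers mark young body 1 to 4 and old hemolymph 2 and 4. Over the 8 old body libraries r is 0.96 on the left and 0.44 on the right. Old hemolymph library 4 lies among the old body libraries on the left and far below them on the right.

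The ratio of the neighbouring products differed between the ages of body. In old body a library held 8.81 to 10.6 counts of miR-318-3p for each count of miR-994-5p (mean 9.65 ± 0.589, SD, n = 8). In young body libraries 1 to 4 the ratio was 0.923, 2.24, 7.93 and 5.45. All 4 young values were below all 8 old values, but counting error allows other orders. The exact counting interval was 7.53 to 8.34 in young library 3 and 7.99 to 9.73 in old body library 3. The mean log2 ratio was 1.64 higher in old body (exact permutation test, two-sided, p = 0.00404, the smallest that 4 against 8 libraries allow, adjusted over 3 ratios 0.0121). Without young library 1, whose ratio rests on 12 counts against 13, the difference was 1.07. The log2 ratios had an SD of 1.38 in young body and 0.0869 in old body. The permutation test takes the groups as alike in spread, so its p may not measure the means alone. A ratio within a library does not depend on how the library is scaled.

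The other ratios did not pass. The ratio of miR-318-3p to miR-989-3p was 3.53 to 6.82 in old body and 0.0265, 1.25, 19.2 and 12.9 in young body libraries 1 to 4, which lay on both sides of the old range (log2 difference 1.59, exact permutation p = 0.448). The ratio of miR-994-5p to miR-994-3p differed by 0.79 on the log2 scale (exact permutation p = 0.275).

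**Figure D4:**
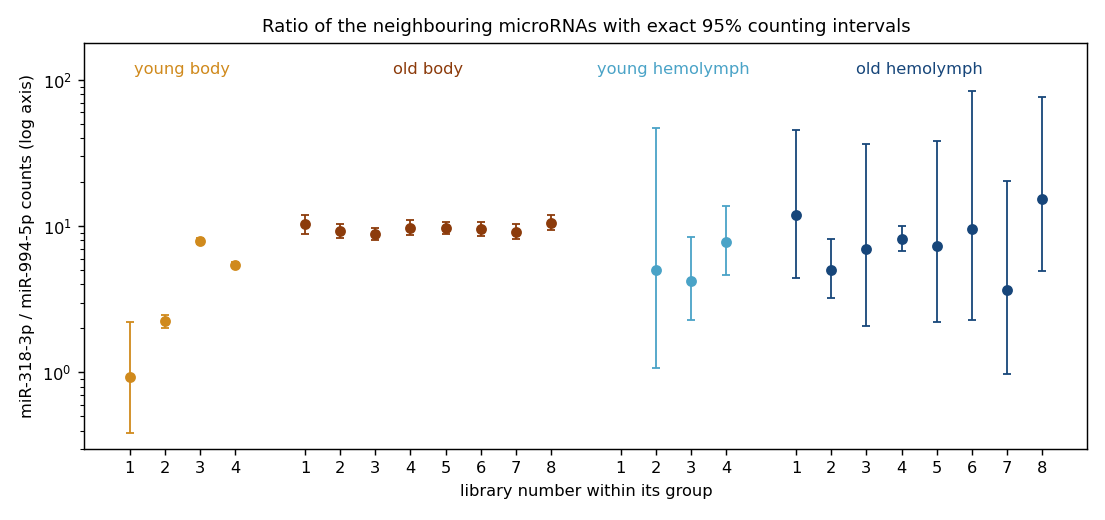
Counts of miR-318-3p per count of miR-994-5p in each library, on a log axis, with exact 95% counting intervals. Young hemolymph library 1, with no count of miR-994-5p, has no value. The old body libraries lie between 8.81 and 10.6, above all 4 young body libraries, which run from 0.923 to 7.93. The intervals of young body library 3 and old body library 3 overlap.

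Which other microRNAs varied most like each product was described over the 12 body libraries, by Pearson's r of log2(CPM + 1) with the 100 other microRNAs that averaged at least 100 CPM in body. The nearest to miR-318-3p was miR-312-3p (r = 0.960), followed by miR-994-5p, then miR-311-3p (0.927), miR-313-3p (0.893) and miR-92b-3p (0.886). miR-312-3p, miR-311-3p and miR-313-3p come from the miR-310 cluster, which is known for maternal expression in the ovary and early embryo. Its members are close in sequence, so the counting may have split or shared reads among them. miR-989-3p ranked 24 of 100 by this measure. For miR-994-5p the nearest were miR-318-3p, miR-312-3p, miR-994-3p, miR-313-3p and miR-311-3p. For miR-994-3p they were miR-994-5p, miR-318-3p, miR-958-5p, miR-312-3p and miR-313-3p, and for miR-989-3p they were miR-317-3p (0.706), miR-994-5p, miR-318-3p, miR-996-5p and miR-313-3p.

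These orders depend on the wide young body libraries. Over the 8 old body libraries, miR-318-3p and miR-994-5p were each the nearest to the other, and the nearest to miR-989-3p was miR-999-3p (r = 0.977). Of the 5 nearest, 1 was shared with the 12-library order for each of the first 3 products and none for miR-989-3p. The 6 microRNAs of the miR-310 cluster and miR-92 family summed to 0.362%, 1.20%, 7.16% and 7.71% of counts in young body libraries 1 to 4, and to 4.38 ± 0.714% in old body (SD, n = 8). They were lowest in young libraries 1 and 2, as miR-318-3p was. The muscle list, miR-133-3p with miR-1-3p, summed to 0.447%, 0.359%, 0.225% and 0.247%, and 4 nervous system microRNAs to 0.680%, 0.511%, 0.327% and 0.358%, so both were higher in young libraries 1 and 2 than in 3 and 4. Early embryo microRNAs were highest in young library 3, at 0.0820% against 0.0032% to 0.0058% in the other 3, where miR-286-3p alone had 131 counts. The part of these shifts in the levels of the ovary products was not tested.

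In hemolymph the products were scarce in most libraries. miR-318-3p was 11.8, 36.2, 981.97 and 1906 CPM in young hemolymph libraries 1 to 4, from 2, 10, 55 and 132 counts. In old hemolymph its lowest level was 147 CPM, its median 400.0 CPM and its highest 17907 CPM. The highest was library 4, with 993 counts, and library 2 followed with 2178 CPM, while the other 6 lay between 147 and 485 CPM. Because of library 4 and of young body library 1, body and hemolymph overlapped at both ages.

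miR-994-5p was 0, 7.25, 232 and 246 CPM in young hemolymph libraries 1 to 4, from 0, 2, 13 and 17 counts. In old hemolymph its lowest level was 23.6 CPM, its median 40.3 CPM and its highest 2182 CPM, again in library 4, where it had 121 counts against 2 to 24 in the other 7. The ratio of miR-318-3p to miR-994-5p in that library was 8.21, just below the old body range. miR-994-3p had no count in young hemolymph, and in old hemolymph it had 4 counts, all in library 4 (72.1 CPM). Over the group, its level in young hemolymph was at least 21.7-fold lower than in young body, taking a floor of 3 counts over the 4 hemolymph libraries together.

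Of the 4 products, miR-989-3p was the one whose compartments did not overlap at either age. How many of all microRNAs likewise did not overlap was not counted. Of those tested, 40.3% were called lower in young hemolymph and 46.0% in old. It had 2, 2, 0 and 0 counts in young hemolymph libraries 1 to 4 (11.8, 7.25, 0 and 0 CPM). In old hemolymph its lowest level was 33.1 CPM, its median 56.6 CPM and its highest 454 CPM, the last in library 2. Library 4 held only 6 counts of it (108 CPM), so its ratio of miR-318-3p to miR-989-3p was 165.5, above every body library.

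Old hemolymph library 4 also differed in other microRNAs. All 6 microRNAs of the miR-310 cluster and miR-92 list were at their highest of the 8 old hemolymph libraries there, summing to 4.98% of counts. For miR-313-3p this rested on 4 counts, against 3 in library 2. The early embryo list was at its lowest of the 8 there, at 0.0018% of counts. This was 1 count, of miR-6-3p, so its rank is within counting error. How many of all microRNAs were highest in this library was not counted. miR-956-3p was at its highest of the 8 (9053 CPM) and miR-8-3p was at its lowest (254193 CPM). The old hemolymph libraries with description code O (1 to 4) and code R (5 to 8) were also set side by side. miR-989-3p was 60.7 to 454 CPM in the O libraries and 33.1 to 52.5 CPM in the R libraries. miR-994-5p was 40.4 to 2182 and 23.6 to 40.1 CPM. Neither overlapped, but both gaps were within counting error. The nearest libraries for miR-989-3p, O library 1 and R library 8, had 6 counts each. Their exact counting intervals were 22.3 to 132 and 19.3 to 114 CPM. For miR-994-5p, O library 1 had 4 counts and R library 7 had 3. The share of all microRNAs without overlap between the codes was not counted. miR-318-3p was 398 to 17907 and 147 to 402 CPM, which overlap. What the codes mean is not given in the labels.

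The compartments were compared with edgeR's quasi-likelihood test on counts over all 24 libraries, with Benjamini-Hochberg adjustment over the 124 microRNAs tested. In young flies each product was lower in hemolymph. The log2 fold change was -5.09 ± 1.64 (SE) for miR-318-3p (adjusted p = 0.0071), -5.50 ± 1.44 for miR-994-5p (0.00138), -6.83 ± 1.42 for miR-994-3p (0.000194) and -8.90 ± 0.83 for miR-989-3p (1.1e-09), with n = 4 libraries in each group. Of all microRNAs tested, 40.3% were lower in young hemolymph at this threshold. miR-994-3p passed the filter on low counts through young body libraries 2 to 4 (77.7, 167 and 181 CPM) and old hemolymph library 4 (72.1 CPM). With no count in young hemolymph, its call here follows from those young body libraries and adds no support. Its fitted fold change, against a group with no count, is no bound. Without young hemolymph library 4, miR-318-3p was -7.02 and miR-994-5p -7.04, and without young hemolymph library 3 they were -5.71 and -6.50, all still called. miR-318-3p was also -5.76 without old hemolymph library 4, and -5.77 to -5.75 without any 1 old body library other than library 5, although these libraries are in neither of the groups compared.

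In old flies each was again lower in hemolymph, where 46.0% of the microRNAs tested were lower. The log2 fold change was -3.21 ± 1.05 for miR-318-3p (adjusted p = 0.00738), -2.93 ± 0.89 for miR-994-5p (0.00399), -2.62 ± 0.85 for miR-994-3p (0.00769) and -5.15 ± 0.45 for miR-989-3p (2.2e-10), with n = 8 in each group. miR-994-3p entered this fit through the same libraries as above, none of them old body. It had 4 counts in old hemolymph, all in library 4, against 53 in old body. Its call rests on these few counts and is not taken as support. Without old hemolymph library 4 the values became -5.29 for miR-318-3p, -4.80 for miR-994-5p and -5.10 for miR-989-3p, and miR-994-3p had no count left in old hemolymph. With the 4 O-coded old libraries alone, miR-318-3p, miR-994-5p and miR-994-3p were not called (-2.21, -1.89 and -1.02, adjusted p = 0.193, 0.182 and 0.470). With the R-coded alone, miR-318-3p was -6.65 and miR-994-5p -6.38, and miR-994-3p had no hemolymph count.

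Between young and old body, 1 of the 4 products passed the test. Of the microRNAs tested in body, 29.6% were lower in old body. miR-994-3p was called lower, with a log2 fold change of -1.39 ± 0.54 (adjusted p = 0.0495), and the call was lost under most alternatives. miR-318-3p changed by -0.56 ± 0.85 (0.610), miR-994-5p by -1.26 ± 0.64 (0.122) and miR-989-3p by -0.03 ± 0.20 (0.912), none past the threshold. Leaving out young libraries 1 and 2 left only young libraries 3 and 4, which were above every old body library for miR-318-3p, miR-994-5p and miR-994-3p. The log2 fold changes were then -1.51, -2.06 and -2.04 in that order, and 0.07 for miR-989-3p. The first 3 were called, which follows from the libraries left out and supports nothing. The comparisons by age in body share the young body libraries with the young compartment comparison.

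In hemolymph, miR-318-3p differed by 1.64 ± 1.51 (adjusted p = 0.406) and miR-994-5p by 1.42 ± 1.48 (0.446) between old and young, neither past the threshold, where 46.5% of the 86 microRNAs tested were called. miR-994-3p and miR-989-3p did not pass the filter on low counts there and were not tested.

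**Figure D5:**
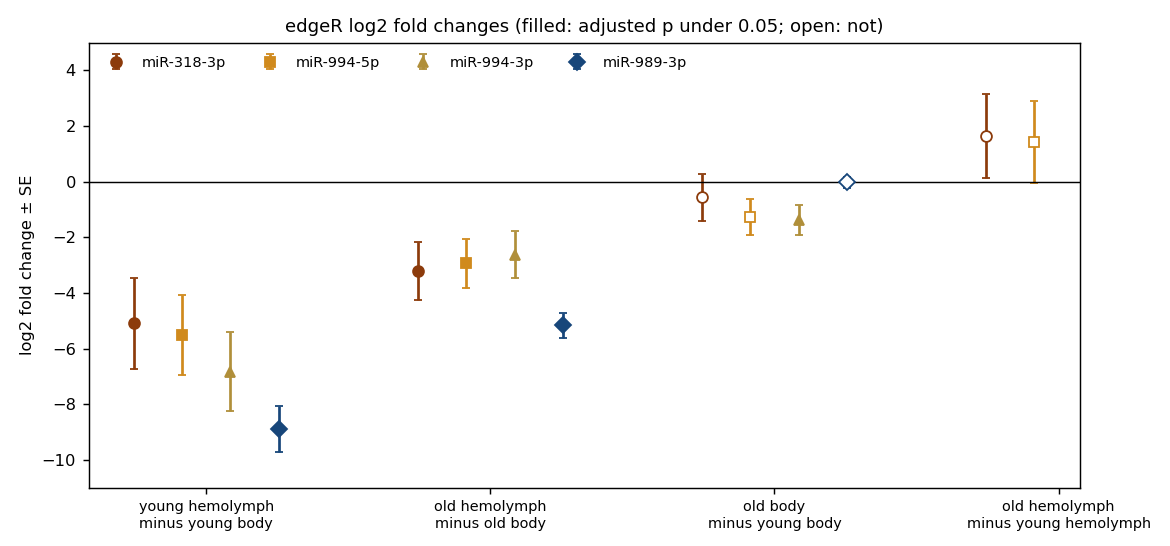
Log2 fold change of each product with its standard error in the 4 comparisons of compartments and ages, from edgeR's quasi-likelihood fits. The value of miR-994-3p between young compartments is fitted against a group with no count. Filled symbols have an adjusted p under 0.05, and miR-994-3p and miR-989-3p were not tested by age in hemolymph. Of the 4 products, miR-989-3p has the lowest value between compartments at either age, -8.90 in young and -5.15 in old flies, and lies near 0 by age in body.

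The change with age was compared between the compartments over all 24 libraries, where 6.45% of the 124 microRNAs tested had a greater rise or smaller fall in hemolymph. miR-989-3p was called, with a difference of 3.75 ± 0.93 on the log2 scale (adjusted p = 0.00781). It rests on 4 counts in the 4 young hemolymph libraries and 68 in the 8 old ones, while the body means were 3879 and 3919 CPM. For miR-318-3p the difference was 1.88 ± 1.72 (0.504), for miR-994-5p 2.58 ± 1.57 (0.274) and for miR-994-3p 4.21 ± 2.11 (0.180), none past the threshold, and the last is fitted against a young hemolymph group with no count.

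The other lists were described by their counts of calls, beside the 40.3% and 46.0% of all microRNAs tested that were lower in young and old hemolymph. Of the miR-310 cluster and miR-92 list, 4 of 6 were lower in young hemolymph than in young body and 5 of 6 in old, with median log2 fold changes of -2.52 and -1.78 against -0.26 and -0.45 over all tested. miR-310-3p was the most lowered of them (-3.72 ± 0.87 in young, adjusted p = 0.000499, and -3.39 ± 0.55 in old, 5.5e-06), and none of the 6 was called by age in body. Of the 6 early embryo microRNAs only miR-286-3p was abundant enough to be tested, and it passed in no comparison. Both muscle microRNAs were lower in hemolymph at either age (medians -4.29 and -4.43), as were all 4 nervous system microRNAs (-6.21 and -6.02). By age in body, 1 of the muscle microRNAs was lower in old body, and of the nervous system list 2 were lower and 1 was higher. Of all microRNAs tested in body, 29.6% were lower in old body. The 1 higher call was not set against a share of all microRNAs. None of the 38 testis names was abundant enough to be tested.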

How the data were processed

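TruSeq small RNA libraries were read as 50 base single reads, per the labels' protocols. Bowtie 1.0, the dm6 genome and edgeR (no version) appear in the submitters' processing notes; how reads were trimmed and which microRNA annotation was used is not given in the sources. The deposited table of 476 rows gave a raw count and an RPM value per library. Its deposited RPM equalled counts scaled to the column total within 0.005, so only counts were tested. Rows repeating a mature name (10) were left out, the row with the highest total being kept.

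Counts were analysed with edgeR 4.0.16 in R 4.3.3: filterByExpr at a minimum count of 10, TMM scaling, quasi-likelihood F test, Benjamini-Hochberg adjustment over all microRNAs tested, threshold 0.05. Compartments and the difference of age changes were fitted over 24 libraries, ages over the 12 of a compartment; SE is the log2 fold change over the square root of F. Correlations and log2 ratios used exact permutation tests (scipy 1.17.1), two-sided, ratios with a pseudocount of 1. Scripts were tested on simulated counts. No library was a duplicate of another.

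The products and lists were chosen with earlier results of these data known. Named microRNAs are the 4 products, list members and the 5 nearest by r. DESeq2 1.42.0 and limma 3.58.1 were alternatives. Mature sequences and seed families were not used here.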

Additional observations from a re-analysis of the deposited data

Results flagged for a closer look

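Old hemolymph library 4 stood far above the other 7 old hemolymph libraries for miR-318-3p, at 1.791e+04 CPM, and for miR-994-5p, at 2182 CPM. miR-994-3p was 72.13 CPM there and at 0 in the other 7, where any count meets the criterion. Its 4 counts have an exact 95% interval of 19.7 to 185 CPM, and a count of 0 allows up to 56.8 CPM in library 3, so at this depth it is not shown to stand apart. These were the 3 values that met Dixon's criterion in 21 groups of values checked. All 3 lie in 1 library, so they are not 3 separate events. The chance rate of about 1 in 20 assumes normally distributed values, which was not checked for CPM. miR-989-3p in the same library was 108 CPM and did not meet the criterion.

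The change with age of miR-989-3p differed between the compartments by 3.75 on the log2 scale (edgeR quasi-likelihood test, adjusted p = 0.00781), and rests on 4 counts in young hemolymph and 68 in old hemolymph. Counts were also present for the other arms of the hairpins, which enter no comparison: miR-318-5p had 7 counts and miR-989-5p 47 counts over all 24 libraries.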

How the results depend on the processing

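The young comparison of compartments kept the direction and call of each product under the alternatives that gave a value, as did the old comparison except for the O-coded old libraries alone. For miR-994-3p, the fit on the 2 compared groups only gave no usable value in either. Leaving out 1 library at a time gave -7.02 to -5.05 for miR-318-3p and -7.04 to -5.27 for miR-994-5p in the young comparison. In the old comparison with the O-coded old libraries alone, the log2 fold changes lost their call at -2.21 for miR-318-3p, -1.89 for miR-994-5p and -1.02 for miR-994-3p. The correlation of miR-318-3p with miR-994-5p and the ratio of that pair kept their direction and call, as did the difference of age changes of miR-989-3p. The call of miR-994-3p lower in old body was lost with RLE factors (-1.38), no low-count filter (-1.43), DESeq2 with or without replaced counts (-1.37), limma with sample weights (-1.66), the replicate block (-1.72), O-coded (-2.04) and R-coded (-1.08) old libraries. Without young libraries 1 and 2, miR-318-3p (-1.51) and miR-994-5p (-2.06) became called, which follows from the young libraries left being above every old body library. The age change of miR-989-3p in body, which was near 0, turned to 0.074 with RLE factors and with DESeq2, with or without replaced counts, to 0.0745 without young libraries 1 and 2, to 0.014 with library size alone, to 0.0055 without the filter and to 0.12 with R-coded libraries. The block by replicate number turned miR-318-3p in body to 0.56. The age change of miR-318-3p in hemolymph turned to -0.55 with DESeq2, which replaced the 993 counts of library 4 by 37, to -1.47 with R-coded libraries and to -1.10 without old hemolymph libraries 2 and 4, an alternative chosen after seeing the data. The difference of age changes turned to -0.82 for miR-318-3p and -0.32 for miR-994-5p with R-coded libraries, and to -0.30 for miR-318-3p without libraries 2 and 4.

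Leaving out 1 library at a time gave log2 fold changes in body of -1.05 to 0.046 for miR-318-3p, -1.74 to -0.91 for miR-994-5p, -1.81 to -1.14 for miR-994-3p (9 of 12 lost the call) and -0.22 to 0.20 for miR-989-3p. Without young library 1, miR-994-5p was called at -1.74 (edgeR adjusted p = 0.000372). In hemolymph the range for miR-318-3p was -0.54 to 2.69, with the lowest value without old hemolymph library 4. Correlations ranged from -0.068 to 0.60 for miR-318-3p with miR-994-3p, -0.081 to 0.67 for miR-994-5p with miR-989-3p and -0.19 to 0.66 for the arms of mir-994, and the log2 ratio of miR-318-3p to miR-989-3p from -0.38 to 2.75. The cause of these changes was not tested.

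Over all microRNAs, the count called for the difference of age changes was 18, but 28 with RLE factors, 30 with DESeq2, 9 without the filter and 5 with R-coded libraries. In body it was 56, but 35 with limma with sample weights, 5 with the replicate block and 28 with either code. In hemolymph it was 40, but 20 with the block and 25 with O-coded libraries. The replicate numbers were not taken to pair libraries: correlations of same-numbered libraries' deviations were -0.0276 to 0.655 in young and -0.214 to 0.164 in old flies. Fitted values of miR-994-3p against a group with no count depend on the fit, and some were left out because their error could not be estimated. Depth limits the hemolymph values, where products often had under 10 counts.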
